A study of Mus musculus with 18 samples.

Results

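The MAP kinase kinases are the 7 genes *Map2k1* to *Map2k7*, which encode the kinases MEK1 to MEK7 of the mitogen-activated protein kinase (MAPK) cascade. They were chosen by name from the list of signalling genes that accompanies the study, and were matched by UCSC identifier. The choice used no measured value but was made with earlier results of these data known. All 7 were present in both deposited tables, among 12064 genes measured in the mesoderm and 11231 genes measured in the neural tube (NT) and forelimb buds (FL).

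A MAP kinase kinase is the middle tier of a relay of kinases. A MAP kinase kinase kinase phosphorylates it in its activation loop, and the activated enzyme then phosphorylates both a threonine and a tyrosine of a MAP kinase, which makes it one of the few dual-specificity kinases. MEK1 and MEK2 (*Map2k1*, *Map2k2*) act below the Raf kinases on the ERK kinases and carry signals of fibroblast growth factors, which direct limb outgrowth. MEK5 (*Map2k5*) activates ERK5, MEK3 and MEK6 (*Map2k3*, *Map2k6*) activate the p38 kinases, and MEK4 and MEK7 (*Map2k4*, *Map2k7*) activate the JNK kinases, with MEK4 also acting on p38.

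Ribo-Seq, which sequences the ribosome-protected fragments (RPFs) of mRNA, and RNA-Seq were measured in mouse embryos at E11.5, with 3 libraries of each type in each of 3 tissues and 18 in all. Mesoderm cells were sorted as GFP+ from embryos that carried the reporter allele R26-mTmGflox/+ together with the transgene Tg(T-cre)1LWD/J/+. In these, Cre driven from the T (Brachyury) promoter switches a membrane reporter from red to GFP in cells of primitive streak descent, and GFP+ cells that were still red were kept. NT and FL were microdissected from FVB embryos and are whole tissues, with all the cell types that a dissection takes along. By the study's methods both tissues came from the same embryos and dissociated neural tube cells were divided between the library types, but no source used here says that equal replicate numbers of NT and FL mark the same embryos. All tissues were handled in media with the elongation inhibitor cycloheximide, and how many embryos made up a replicate is not given in the sources used here. Translational efficiency (TE) is the ratio of RPFs to mRNA on the coding sequence, given here as a log2 value minus the median over all genes of the same tissue.

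The libraries held 24555103 to 50136443 reads in RNA-Seq and 11000015 to 31993255 reads in Ribo-Seq, and each of the 7 genes had at least 173 reads in every library. Both Ribo-Seq libraries numbered 3 stood apart from their groups. On log2 normalized reads over 11231 genes, FL library 3 had a Pearson's r of 0.886 and 0.896 with FL libraries 1 and 2, which had 0.976 with each other, and NT library 3 had 0.933 and 0.934 against 0.989. Each was also nearer to the other tissue than its companions were, with r of 0.823 between FL library 3 and NT libraries 1 and 2, against 0.701 to 0.707 for FL libraries 1 and 2. Some results of the members are therefore also given without them. The family shares, the values of the other tiers of the cascade and the nearest genes rest on all libraries, and what these libraries add to them was not tested. Libraries of other groups also differed among themselves, with r of 0.946 and 0.949 between NT RNA-Seq library 1 and the other 2, which had 0.970 with each other, of 0.939 to 0.987 in mesoderm RNA-Seq and of 0.919 to 0.961 in mesoderm Ribo-Seq. All 11 cell type markers that could be paired with an identifier were measured in every tissue. Summed normalized reads of the 2 neural markers *Nes* and *Dcx* were 36682 to 39601 in NT Ribo-Seq and 1769 to 2995 in FL Ribo-Seq, and those of the 2 mesenchymal markers *Msx1* and *Pdgfra* were 1597 to 2121 in NT and 14186 to 27225 in FL. FL library 3 moved these 2 mesenchymal markers in opposite directions. In FL libraries 1, 2 and 3 *Pdgfra* was at 6897, 7313 and 23601 and *Msx1* at 7289, 9500 and 3624. The sum of the 6 blood and vessel markers was 7883 to 9102 in NT and 4764 to 7861 in FL Ribo-Seq, but these markers did not go the same way. *Kit* was at 3199, 3177 and 2176 in NT and 372, 399 and 1403 in FL. *Csf1r* was at 703, 820 and 1181 in NT, against 1786, 1705 and 990 in FL. For *Kdr*, *Flt1*, *Tie1* and *Tek* the tissues overlapped only through FL library 3. FL libraries 1 and 2 lay below every NT library for each of them. In that order, FL library 3 held 3004, 726, 1391 and 346, whereas FL library 2 held 1590, 439, 1012 and 147. Their lowest NT values were 2160, 580, 1106 and 203. The ectodermal marker *Epcam* was 60.9 to 187 in NT and 1215 to 1899 in FL. In NT RNA-Seq, library 1 differed from libraries 2 and 3 in *Epcam*, at 659 against 96.0 and 107, and in *Dcx*, at 2675 against 7953 and 6797, while FL RNA-Seq held 537 to 690 of *Epcam*. In the mesoderm table the mesenchymal sum was 14444 to 19163 and the neural sum 2825 to 3902 in Ribo-Seq. In these bulk samples, fewer cells of a type and less mRNA per cell cannot be told apart, and the part of cell makeup in the results below was not tested.

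The start codon is where the ribosomes counted here begin to read, so the 24 bases around it are given for each gene from the GENCODE vM21 principal transcript on GRCm38, with the ATG in capitals. The lines are ordered by branch of the cascade.
Map2k1: cccggctgcaagATGcccaagaag
Map2k2: cgtggagccccgATGctggcccgg
Map2k5: ctttaacctgtaATGctgtggctg
Map2k3: acggtccgcagcATGgagtcgccc
Map2k6: ggaaaggggaaaATGtctcagtcg
Map2k4: tcacttccaacaATGgcggctccg
Map2k7: gcggcggggaagATGgcggcgtcc
The start codons lie at chr9:64253290-64253292 on the minus strand for *Map2k1*, chr10:81106147-81106149 on the plus strand for *Map2k2*, chr9:63377255-63377257 on the minus strand for *Map2k5* and chr11:60932223-60932225 on the plus strand for *Map2k3*. Those of *Map2k6*, *Map2k4* and *Map2k7* lie at chr11:110399410-110399412 on the plus strand, chr11:65788242-65788244 on the minus strand and chr8:4238910-4238912 on the plus strand. A purine at position -3, counted back from the ATG, was present in 6 of the 7 genes and in 84.5% of 20254 principal coding transcripts, *Map2k2* being the exception. A purine at -3 together with G as the base after the ATG (position 4) was present in *Map2k3*, *Map2k4* and *Map2k7* and in 41.5% of all these transcripts. The annotated 5′-UTR was 645 bases in *Map2k5* and 53 bases in *Map2k4*, against a median of 178. *Map2k1* and *Map2k4* had no ATG upstream of the start, as had 44.2% of all these transcripts, *Map2k2*, *Map2k3* and *Map2k7* had 1 each, and *Map2k5* and *Map2k6* had 2 each.

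Only uniquely mapped reads were counted, so sequence shared with another gene can bear on a member's reads where both were in the reference. Identity of the coding bases was highest for *Map2k1* and *Map2k2* at 79.1% and for *Map2k3* and *Map2k6* at 73.7%. Of exact words, 3.29% of the 30-base words in the counted part of *Map2k1* and 3.22% of those of *Map2k2* occurred in the other gene, and no other member shared a word with a member. For *Map2k3*, 3.25% occurred in the processed pseudogene *Gm12792*, and for *Map2k4*, *Map2k5* and *Map2k6* none occurred in a transcript of another gene. *Map2k7* is uncertain in this respect, because 97.5% of its words also occurred in *Gm49320*, a longer protein-coding gene annotated over the same locus and strand. *Map2k7* also had 7 coding isoforms, from 1041 to 1407 bases, whereas the others had 1 or 2.

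Per kilobase of counted coding sequence, *Map2k2* was the most abundant member at the mRNA level in every tissue. Its normalized reads per kb in RNA-Seq were 4631 ± 1296 (SD, n = 3) in the mesoderm, 3591 ± 586 in NT and 3525 ± 468 in FL, and its lowest library lay above the highest library of every other member. *Map2k5* was the least abundant mRNA in the mesoderm at 641 ± 89.5 and in FL at 681 ± 64.5. In NT the lowest mRNAs were those of the p38 branch, *Map2k3* at 468 ± 96.7 and *Map2k6* at 383 ± 117 reads per kb, whose libraries overlapped.

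**Figure D1:**
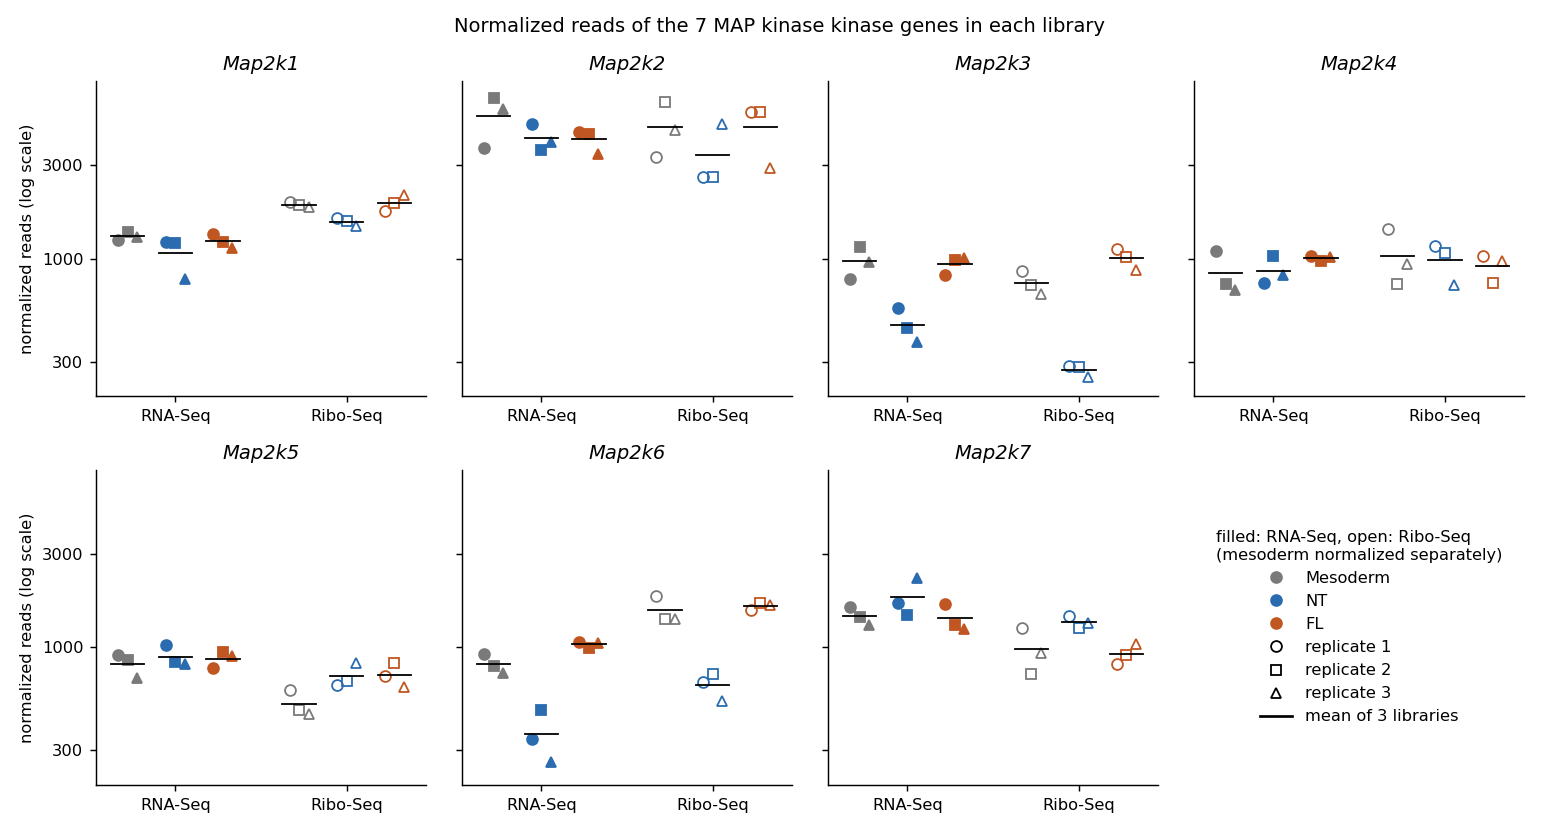
Normalized reads (log axis) of each gene in each of the 18 libraries, with 1 point per library, filled for RNA-Seq and open for Ribo-Seq, and a line at the mean of 3. *Map2k3* and *Map2k6* lie lower in NT than in FL in every library of both types, and *Map2k2* Ribo-Seq library 3 of NT and of FL lie away from the other libraries of their group.

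Most neighbours in this order did not differ beyond their spread. In the mesoderm, the mRNA levels of *Map2k7*, *Map2k1*, *Map2k3*, *Map2k6*, *Map2k4* and *Map2k5*, in falling order from 1203 to 641 reads per kb, overlapped between libraries at each step. In FL, the mRNA order after *Map2k2* was *Map2k7*, *Map2k6*, *Map2k1*, *Map2k3* and *Map2k4*, from 1169 to 891 reads per kb, again with overlap at each step, and *Map2k5* stood below. In NT, *Map2k7* followed *Map2k2* at 1499 ± 341 reads per kb, apart from *Map2k1* at 952 ± 218. The ribosome-bound order differed from the mRNA order in places. In Ribo-Seq *Map2k1* came next after *Map2k2* in every tissue, with 1675 ± 52.2 reads per kb in the mesoderm, 1374 ± 68.2 in NT and 1720 ± 165 in FL. *Map2k6* came close behind it in the mesoderm (1631 ± 269) and in FL (1718 ± 65.5), with overlapping libraries, whereas *Map2k7* held rank 2 in the mesoderm mRNA and rank 5 in the mesoderm RPFs (814 ± 220).

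Taken as shares of the 7 genes' summed reads per kb, *Map2k2* had a larger share than any other member, and the p38 branch had its smallest share in NT. *Map2k2* made up 36.8% ± 10.1 of the RPFs in NT, 37.4% ± 8.79 in FL and 39.5% ± 10.9 in the mesoderm. *Map2k3* and *Map2k6* together made up 12.5% ± 2.80 of the RPFs in NT and 25.8% ± 2.14 in FL, and 10.2% ± 1.96 and 21.9% ± 2.31 of the mRNA. The highest NT library was 14.7% and the lowest FL library 24.6% in Ribo-Seq. The mesoderm lay nearer to FL in this share, at 23.4% ± 3.92 of the RPFs, and since shares are formed within a library they can be read beside each other although the tables were normalized separately.

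**Figure D2:**
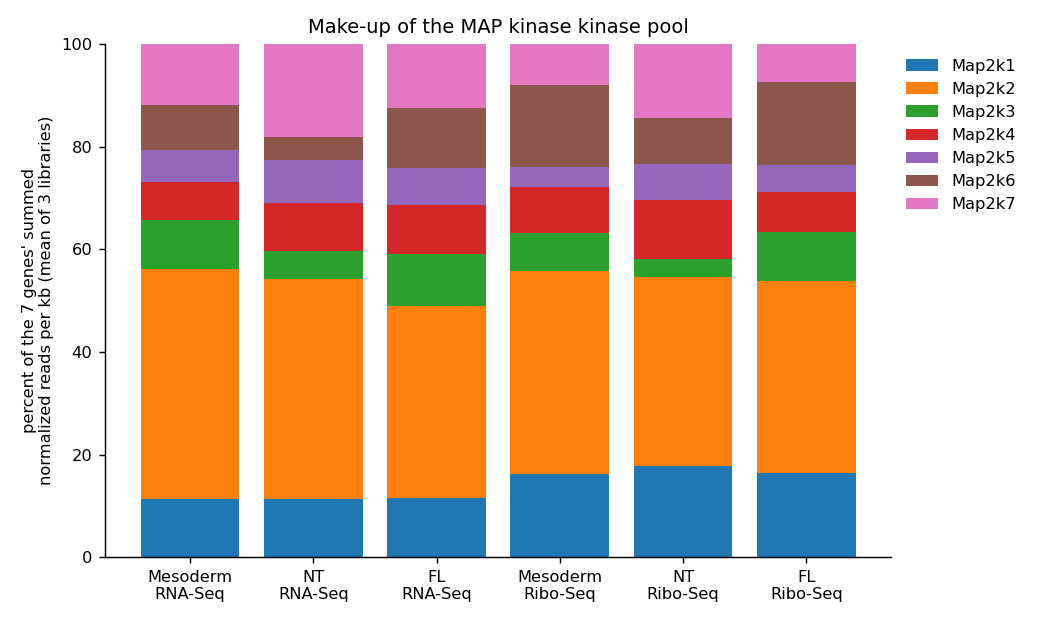
Share of each gene in the summed normalized reads per kb of the 7 genes, as percent, by tissue and library type (mean of 3 libraries). *Map2k2* fills 36.8% to 44.7% of every bar, and the joint share of *Map2k3* and *Map2k6* is smallest in NT.

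TE of the 7 genes was measured in each tissue against the median of all genes, to ask how many ribosomes each mRNA carried for its amount. None of the 7 lay 3-fold from the median at an adjusted p under 0.05 in any tissue, where 12.1% of all genes did in the mesoderm, 4.57% in NT and 19.6% in FL. At an adjusted p under 0.05 with no fold limit, 2 members lay above the median in the mesoderm (32% of all genes) and 2 below it (34.2%). In NT, 1 lay above (10.9%) and 1 below (15.1%), and in FL 2 lay above (28.8%) and 1 below (29.5%). These counts are close to the background shares. The median log2 TE of the 7 was -0.22 in the mesoderm, -0.35 in NT and 0.10 in FL, where the median of all genes is 0 by construction.

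**Figure D3:**
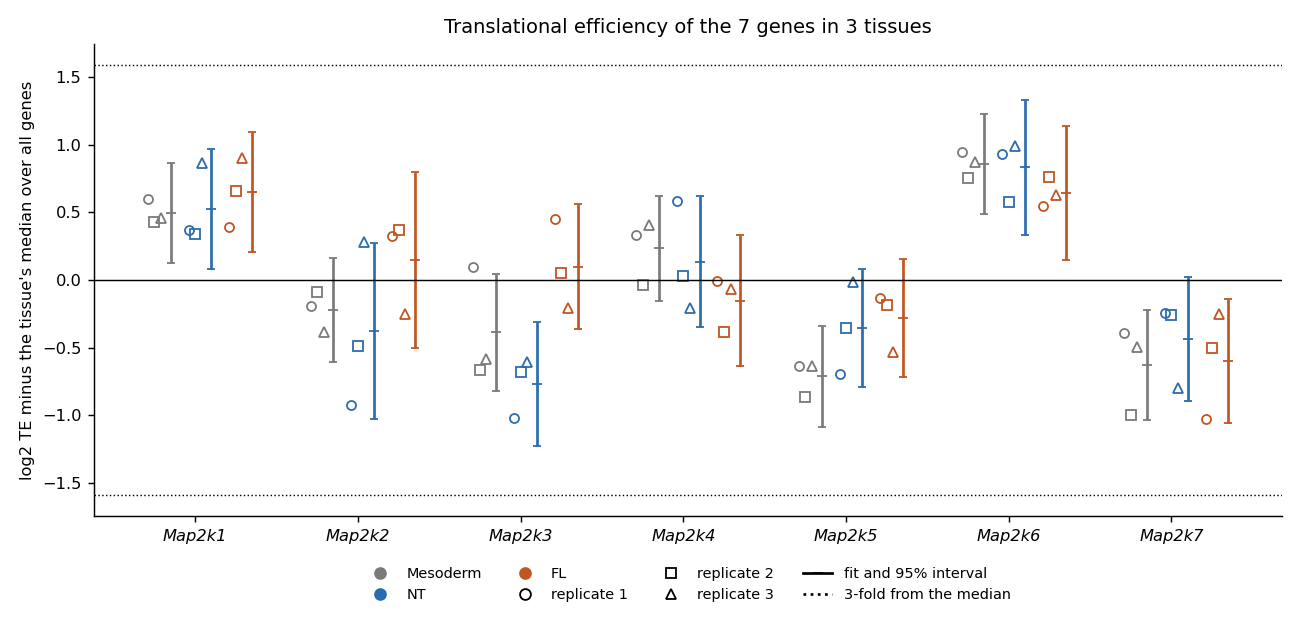
Log2 TE of each gene minus the tissue's median over all genes, with 1 point per replicate number, a dash at the fitted value, bars for its 95% interval and dotted lines 3-fold from the median. *Map2k1* and *Map2k6* are above 0 in all 3 replicates of all 3 tissues, *Map2k5* and *Map2k7* are below 0 in all of them, and no fitted value reaches a dotted line.

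In the ERK branch, *Map2k1* lay above the median TE in the mesoderm and in FL, and *Map2k2* passed in no tissue with all libraries. Normalized reads of *Map2k1* in the mesoderm were 1248, 1363 and 1296 in RNA-Seq and 1939, 1875 and 1822 in Ribo-Seq. The library types did not overlap, and log2 TE was 0.49 ± 0.17 (SE, adjusted p = 0.0225), or 1.41-fold above the median. In FL it was 0.65 ± 0.21 (adjusted p = 0.0162) and in NT 0.53 ± 0.21, which missed the threshold (adjusted p = 0.0747). Without the Ribo-Seq libraries numbered 3 it passed in NT as well, at 0.56 (adjusted p = 0.0307). *Map2k2* had log2 TE of -0.22 in the mesoderm (95% interval -0.61 to 0.16), -0.38 in NT (-1.03 to 0.27) and 0.15 in FL (-0.50 to 0.80), and none of these passed. Without the Ribo-Seq libraries numbered 3 its log2 TE became -0.69 in NT (adjusted p = 0.00352) and 0.46 in FL (adjusted p = 0.0156), and in that fit 42.1% of all genes in NT and 74.5% in FL differed from the median.

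*Map2k5*, the activator of ERK5, had the lowest TE of the 7 in the mesoderm. Its normalized reads there were 917, 861 and 696 in RNA-Seq and 606, 483 and 458 in Ribo-Seq, so that every RPF library lay under every RNA library. Log2 TE was -0.71 ± 0.17 (adjusted p = 0.00356), 1.64-fold under the median and at percentile 28.4 of all genes. In NT and FL the values were -0.35 (adjusted p = 0.207) and -0.28 (adjusted p = 0.24), which did not pass. NT did without the Ribo-Seq libraries numbered 3, at -0.47 (adjusted p = 0.0399), in the fit where 42.1% of all genes differed from the median.

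In the p38 branch, *Map2k6* had the highest TE of the 7 in the mesoderm and in NT. Normalized reads of *Map2k6* in the mesoderm were 931, 805 and 744 in RNA-Seq and 1835, 1392 and 1398 in Ribo-Seq. All 3 Ribo-Seq libraries lay above all 3 RNA-Seq libraries, and the same held in NT and FL. Log2 TE was 0.86 ± 0.17 in the mesoderm (adjusted p = 0.00103, percentile 82.1), 0.83 ± 0.23 in NT (adjusted p = 0.0201, percentile 89.8) and 0.64 ± 0.23 in FL (adjusted p = 0.0292, percentile 69.4). It was the only member to pass in all 3 tissues. *Map2k3* had log2 TE of -0.39 ± 0.20 in the mesoderm (adjusted p = 0.102), -0.77 ± 0.21 in NT (adjusted p = 0.0197) and 0.10 ± 0.21 in FL (adjusted p = 0.697). In NT its TE was thus 1.7-fold under the median, the lowest of the 7 there, while *Map2k6* was 1.78-fold above it.

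In the JNK branch, *Map2k7* lay below the median and *Map2k4* near it. Normalized reads of *Map2k7* were 1608, 1428 and 1295 in mesoderm RNA-Seq and 1257, 732 and 942 in mesoderm Ribo-Seq. Log2 TE was -0.63 ± 0.18 in the mesoderm (adjusted p = 0.0111), -0.60 ± 0.21 in FL (adjusted p = 0.0282, or 0.0575 with a replicate block within tissue) and -0.43 ± 0.21 in NT (adjusted p = 0.146). Whether the sequence it shares with *Gm49320* bears on these values was not tested. *Map2k4* had log2 TE of 0.23 (95% interval -0.15 to 0.62), 0.14 (-0.35 to 0.62) and -0.15 (-0.64 to 0.33) in the mesoderm, NT and FL. None of these passed, and per replicate they ran from -0.39 to 0.58.

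These calls were moderate in size, and several did not pass in every fit that left out a library or replicate. The fitted log2 TE moved little for *Map2k6* in FL (0.61 to 0.66) and *Map2k1* in the mesoderm (0.46 to 0.52) over such fits. It moved more for *Map2k6* in NT (0.63 to 1.06). The SE grew with fewer libraries, for *Map2k1* in the mesoderm from 0.17 to 0.34 without replicate 3. In the mesoderm, *Map2k5* and *Map2k6* passed whichever replicate number was left out. *Map2k1* did not pass without replicate 1 (adjusted p = 0.104) or replicate 3 (adjusted p = 0.197), and *Map2k7* did not without replicate 3 (adjusted p = 0.0733), while *Map2k3* passed without replicate 1 and *Map2k4* without replicate 2. Without the pairing of RNA-Seq and Ribo-Seq of the same cells (no replicate block), *Map2k1* (adjusted p = 0.0898) and *Map2k7* (adjusted p = 0.0872) no longer passed. In NT, *Map2k6* was lost without Ribo-Seq library 1 or 2 or RNA-Seq library 3 (adjusted p up to 0.0847), and *Map2k3* without RNA-Seq library 1 or Ribo-Seq library 3 (adjusted p up to 0.0605). In FL, *Map2k1* was lost without RNA-Seq library 3 (adjusted p = 0.0619). The FL call of *Map2k6* was lost without any 1 of the 3 RNA-Seq libraries or of Ribo-Seq libraries 1 and 2 (adjusted p up to 0.0872), and that of *Map2k7* without library 1 or 2 of either type (adjusted p up to 0.125) or when RNA-Seq and Ribo-Seq of a tissue and number were taken as a pair (replicate block within tissue, adjusted p = 0.0575).

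The comparison of FL with NT, both of the same stage and table, asked which members differ between a limb and a neural tissue. *Map2k3* and *Map2k6* of the p38 branch were higher in FL, in mRNA and in RPFs, and the other 5 members passed no threshold. The 2 that rose in mRNA stand beside 10.3% of all genes that rose and 12.3% that fell, and the 2 that rose in RPFs beside 22.6% that rose and 22.7% that fell.

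*Map2k6* rose most in mRNA. Its normalized reads in RNA-Seq were 341, 482 and 262 (NT) against 1064, 991 and 1055 (FL). In Ribo-Seq, NT had 666, 733 and 532 and FL had 1557, 1680 and 1633. The tissues did not overlap in either library type. The mRNA was 2.95-fold higher in FL (log2 1.56 ± 0.23, adjusted p = 0.000184) and the RPFs 2.54-fold higher (log2 1.35 ± 0.23, adjusted p = 0.000478). Its RPFs and mRNA rose by similar folds, and the difference in log2 TE was -0.22 (95% interval -0.92 to 0.49).

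*Map2k3* rose more in RPFs than in mRNA. Its normalized reads in RNA-Seq were 563, 443 and 375 (NT) against 822, 984 and 1004 (FL), and in Ribo-Seq 283, 281 and 251 in NT and 1126, 1025 and 873 in FL. Every FL library lay above every NT library of its type. The mRNA was 2.05-fold higher in FL (log2 1.04 ± 0.21, adjusted p = 0.00253) and the RPFs 3.68-fold higher (log2 1.88 ± 0.21, adjusted p = 1.32e-05). The difference in log2 TE was 0.84 ± 0.30 (95% interval 0.19 to 1.49, unadjusted p = 0.0148), higher in FL, but it missed both the adjusted threshold (adjusted p = 0.291) and the 2-fold limit. Without the Ribo-Seq libraries numbered 3 it was 0.89 with an adjusted p of 0.0186, at 1.85-fold still short of that limit. The adjusted p alone was also under 0.2 with DESeq2 on all 12 libraries (0.86, adjusted p = 0.154), without FL Ribo-Seq library 3 (0.94, adjusted p = 0.0217) and without NT Ribo-Seq library 3 (0.79, adjusted p = 0.141), each under 2-fold. Of 11231 genes, the adjusted p alone was under 0.2 for 3794 lower and 4030 higher in FL without both libraries numbered 3. These counts were 3434 and 3419 without that of FL and 2141 and 2112 without that of NT. With all 12 libraries they were 331 and 649 by DESeq2 and 31 and 14 by limma. The rises of *Map2k3* and *Map2k6* in mRNA and in RPFs passed in all 12 fits that left out 1 library. Without NT RNA-Seq library 1 the mRNA differences were 1.19 for *Map2k3* and 1.54 for *Map2k6*.

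**Figure D4:**
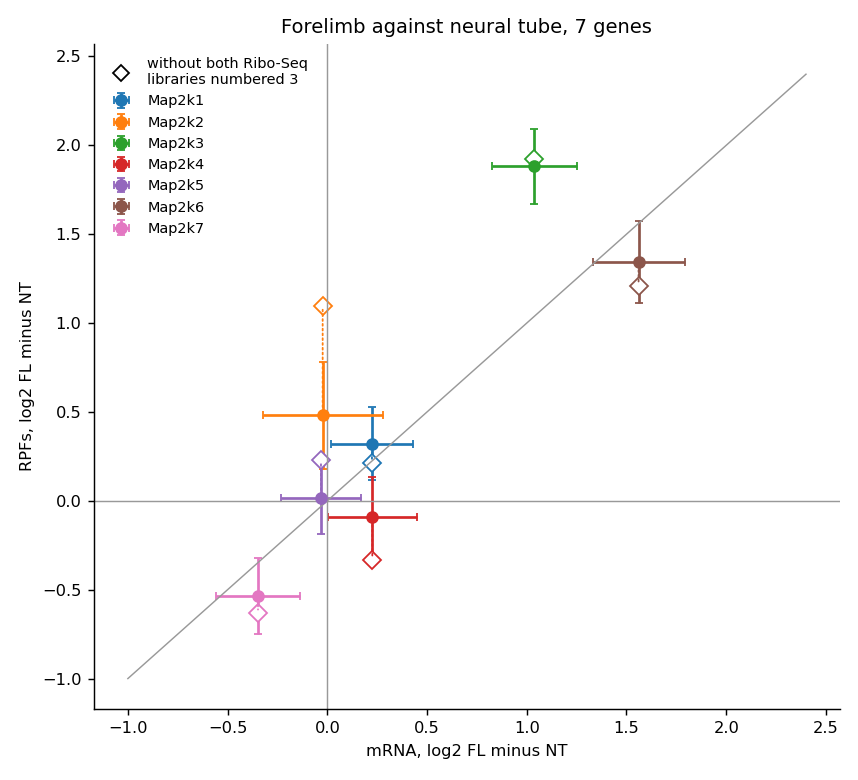
Log2 difference FL minus NT of each gene in mRNA (x axis) and in RPFs (y axis), filled points with SE bars from all 12 libraries and open diamonds without the Ribo-Seq libraries numbered 3, with the grey diagonal at equal change. *Map2k3* and *Map2k6* lie to the upper right, and the RPF difference of *Map2k2* moves from 0.48 to 1.10 when those libraries are left out.

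*Map2k2*, the most abundant member, gave a result that turned on the Ribo-Seq libraries numbered 3. Its normalized reads in RNA-Seq were 4861, 3559 and 3925 (NT) against 4408, 4286 and 3424 (FL). The tissues overlapped, with a log2 difference of -0.02 (95% interval -0.67 to 0.63). In Ribo-Seq, NT had 2611, 2589 and 4861 and FL had 5546, 5565 and 2890. Libraries 1 and 2 thus put *Map2k2* higher in FL and libraries 3 put it higher in NT. With all libraries the RPF difference was 0.48 ± 0.30 (adjusted p = 0.204) and the TE difference 0.50 ± 0.43 (adjusted p = 0.462). Without both libraries numbered 3 the RPFs were 2.14-fold higher in FL (log2 1.10 ± 0.17, adjusted p = 7.05e-05) and TE 2.17-fold higher (log2 1.12 ± 0.22, adjusted p = 0.000916), past the threshold for a change in TE. Leaving out a single library numbered 3 gave RPF differences of 0.79 (without that of FL, adjusted p = 0.0143) and 0.78 (without that of NT, adjusted p = 0.0392), and TE differences of 0.82 and 0.80 that stayed under 2-fold. Of 11231 genes, RPFs of 3596 were lower and of 3677 higher in FL without that of FL. Without that of NT these counts were 2860 and 2788.

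Across all genes, the same choice moved the share called for a change in TE from 0.401% to 42.7%, so that the *Map2k2* call in the smaller set of libraries is 1 member of 7 beside that share. None of the 7 was called for TE with all 12 libraries by limma. edgeR and DESeq2 on the recovered reads called none either, where they called 0.347% and 7.65% of all genes, and neither did limma with a replicate block (0.0534% of all genes) or with that block within tissue (0.0356%). For the members not named above, the TE difference FL minus NT was 0.10 (95% interval -0.53 to 0.72) for *Map2k1*, -0.31 (-1.0 to 0.37) for *Map2k4*, 0.05 (-0.57 to 0.66) for *Map2k5* and -0.19 (-0.84 to 0.46) for *Map2k7*, on the log2 scale. Each of these intervals spans 0.

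*Map2k7*, a JNK activator, had its lower RPF values in FL. In Ribo-Seq its normalized reads were 1442, 1255 and 1324 (NT) against 819, 919 and 1042 (FL), without overlap. The log2 difference in RPFs was -0.54 ± 0.21 (adjusted p = 0.0544), just short of the threshold. It passed with DESeq2 (adjusted p = 0.046), with libraries scaled to the same total (adjusted p = 0.0278), without FL Ribo-Seq library 3 (adjusted p = 0.0185) and without NT RNA-Seq library 3 (adjusted p = 0.0463). Without the Ribo-Seq libraries numbered 3 it was -0.63 (adjusted p = 0.0182), in a fit where 34.7% of all genes were lower and 35.8% higher in FL. In mRNA the difference was -0.35 (adjusted p = 0.305). *Map2k1*, *Map2k4* and *Map2k5* had log2 differences of 0.22, 0.23 and -0.03 in mRNA and 0.32, -0.09 and 0.01 in RPFs, and none passed.

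Other tiers of the cascade were measured in the same fits, from the same list of signalling genes. Of the 12 MAP kinase kinase kinases, 11 lay below the median TE in the mesoderm (34.2% of all genes) and 0 above it, with a median log2 TE of -1.55, and 5 of the 12 were also 3-fold below, where 12.1% of all genes were 3-fold off in either direction. In FL 10 of the 11 measured were below (29.5% of all genes), with a median of -1.88, and in NT 5 of 11 (15.1% of all genes), with a median of -1.11. Of the MAP kinases, 8 of 13 lay below the median TE and 1 above it in the mesoderm, with a median of -0.57. In NT 4 of 11 lay below and 1 above, with a median of -0.58, and in FL likewise 4 and 1 of 11, with a median of -0.19. Among the Raf kinases, which phosphorylate MEK1 and MEK2, *Araf* was at a log2 TE of -1.49, -1.20 and -1.19 in the mesoderm, NT and FL and passed in each. *Braf* was at -0.27, -0.26 and -0.79 and passed in FL. Of the 3 Ras genes, 1 lay above and 1 below in the mesoderm, 0 and 1 in NT and 1 and 0 in FL, with medians of -0.09, -0.14 and 0.01. The median of the 7 MAP kinase kinases therefore stood above that of the MAP kinase kinase kinases in each tissue, a description for which no test between tiers was made.

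**Figure D5:**
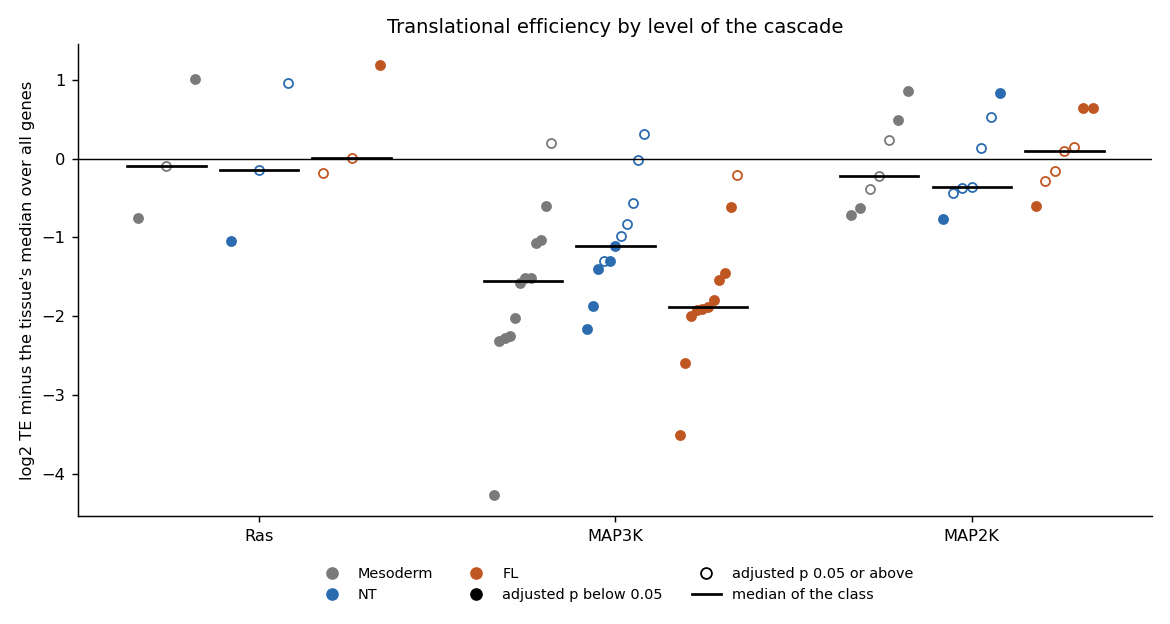
Log2 TE minus the tissue's median over all genes for the genes of 3 tiers of the cascade, coloured by tissue, filled where the adjusted p is below 0.05, with a line at the median of the tier. The 7 MAP kinase kinases (MAP2K) stay between -0.77 and 0.86, whereas the MAP kinase kinase kinases (MAP3K) reach -4.27. That lowest value is *Map3k10* in the mesoderm, which had a mean of 112 normalized reads in Ribo-Seq. Raf and MAP kinase genes are not drawn.

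The usual substrates of each branch showed their own values. ERK1 (*Mapk3*) had log2 TE of -0.19 in the mesoderm, -0.21 in NT and 0.12 in FL, and none passed. ERK5 (*Mapk7*) was below the median in every tissue, at -1.72 in the mesoderm (adjusted p = 3.83e-05), -1.23 in NT and -1.52 in FL, and its activator *Map2k5* was below in the mesoderm. Among the p38 genes, *Mapk14*, the widely expressed p38 alpha, had 0.33, 0.01 and 0.25 and did not pass, and *Mapk12* had -0.62 in the mesoderm and -0.84 in NT, both past the threshold, and -0.08 in FL. *Mapk11* had -0.57 in the mesoderm (adjusted p = 0.0189), which passed, -0.58 in NT and -0.19 in FL, and *Mapk13* had -0.54 in the mesoderm (adjusted p = 0.146). Among the JNK genes, *Mapk9* had -0.56 and -0.96 in the mesoderm and FL, both past the threshold, and -0.72 in NT, and *Mapk8* had -0.58 in the mesoderm, which passed, 0.50 in NT and -0.51 in FL. *Mapk10* had the lowest mesoderm value of the JNK genes, at -1.12 (adjusted p = 0.00433).

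In the comparison of FL with NT, no p38 gene passed the test as higher in FL, unlike *Map2k3* and *Map2k6*. *Mapk11* was lower in FL, with log2 differences of -2.33 in mRNA (adjusted p = 7.20e-06) and -1.97 in RPFs (adjusted p = 2.86e-05). *Mapk12* was lower in mRNA at -0.83 (adjusted p = 0.0109) but not in RPFs, at -0.09 (adjusted p = 0.734). *Mapk14* had 0.25 in mRNA and 0.46 in RPFs, which did not pass. *Mapk13* and the JNK gene *Mapk10* were measured only in the mesoderm. *Mapk8* was lower in FL at -1.05 in mRNA (adjusted p = 0.0402) and -2.09 in RPFs (adjusted p = 0.000317). *Mapk3* was lower at -0.76 in mRNA (adjusted p = 0.0102), and its RPF difference of -0.45 did not pass (adjusted p = 0.0666). Of the 28 other cascade genes in that table, 0 rose and 8 fell in mRNA, beside 10.3% and 12.3% of all genes, and 2 rose and 10 fell in RPFs, beside 22.6% and 22.7%, with medians of -0.44 and -0.48 beside 0.02 and 0.04 for all genes.

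The genes nearest to each member in TE over the 3 tissues were found among 144 other signalling genes of the same list, by the Euclidean distance over the 3 centred log2 values. For *Map2k2* the nearest was *Mapk3*, which encodes its substrate ERK1, at a distance of 0.18. *Map2k3* was nearest to the p38 gene *Mapk12* at 0.30, *Map2k6* to the receptor *Flt1* at 0.24 and *Map2k1* to *Prkar1b*, a regulatory subunit of protein kinase A, at 0.26. *Map2k4* was nearest to *Gpr155* at 0.15, and *Map2k5* at 0.24 and *Map2k7* at 0.12 shared the nearest gene *Gpr137c*. Each distance rests on 3 values, so it describes likeness in these tissues and no more.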

How the data were processed

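Ribo-Seq and RNA-Seq of 3 tissues were analysed, with 3 libraries for each of 6 groups as the labels give them. The authors trimmed reads with cutadapt, removed rRNA, tRNA and snRNA reads, aligned the rest with Bowtie2 to canonical UCSC transcripts (mm10), kept unique reads and counted them over coding sequence after leaving out 15 codons at its start and 5 at its end. The deposited values are a signal, these counts divided by the DESeq library size, with a separate table for the mesoderm. In all 18 libraries 100% of the values were whole multiples of a step, within 0.01, and gave the reads back.

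The members and gene lists were chosen with earlier results of these data known. The named genes are all 7 members, the Raf kinases, the usual substrates of each member and the nearest gene to each, of which some are not reported here. Log2(normalized reads + 1) was fitted with limma 3.58.1 (trended empirical Bayes, R 4.3.3) within each table, and the mesoderm fit had a replicate block, which the study's own model also holds. Deviations of RNA-Seq and Ribo-Seq of the same mesoderm cells correlated at 0.743, 0.579 and 0.573 for the 3 numbers. For NT and FL all 12 libraries entered a single fit with no block. TE was tested against its median over all genes. P-values were adjusted by Benjamini-Hochberg over the whole table, with a threshold of 0.05 for TE (also with 3-fold), mRNA and RPFs, and of 0.2 with 2-fold for TE between tissues. Adding 1 understates changes of low genes. Fold changes are on that scale. P-values reflect the spread between libraries, and the replicates are biological per the study's methods. Reads in edgeR 4.0.16 and DESeq2 1.42.0, pseudocounts of 0.5 and 8, a mean of at least 100, equal library totals, other blocks and left-out libraries were alternatives. Simulated reads gave 200 of 12064 genes an 8-fold shift of mesoderm TE, and limma found all 200 and no other gene. For TE between NT and FL, 200 of 11231 genes were shifted 4-fold, and limma found 199 of these plus 47 that were not shifted. Both shifts were larger than any TE value or TE difference of the 7 members. Recovery of smaller shifts, or with libraries as far apart as the Ribo-Seq libraries numbered 3, was not tested. Positions, sequences and coding lengths come from GENCODE vM21 (GRCm38, the same build as mm10), whose isoforms can differ from those counted. Protein sequences were not used here.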

Additional observations from a re-analysis of the deposited data

How the results depend on the processing

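Pseudocounts of 0.5 and 8, a mean of at least 100 normalized reads, equal library totals, edgeR and DESeq2 left the number of members off the median TE at 4 in the mesoderm, 2 in NT and 3 in FL, and those changed between FL and NT at 0 for TE and 2 for mRNA. RPF changes stood at 2 or 3, with *Map2k7* added by DESeq2 (adjusted p = 0.046) and by equal totals (adjusted p = 0.0278). In the mesoderm, the fit with no replicate block left 2 members in place of 4. The sources do not say that equal numbers of NT and FL mark the same embryos, and deviations of same-numbered libraries, in which the Ribo-Seq libraries numbered 3 weigh, correlated at -0.294, -0.502 and -0.578 in Ribo-Seq and -0.0221, -0.215 and -0.237 in RNA-Seq. The replicate block there kept 2 members in NT, 3 in FL, 0 for TE change, 2 for mRNA and 2 for RPFs, and a replicate block within tissue gave 2, 2 and 0 for the TE results, with *Map2k7* lost in FL (adjusted p = 0.0575). Equal totals moved the median RPF difference over all genes from 0.04 to -0.11. Without both Ribo-Seq libraries numbered 3 the count was 5 in NT (42.1% of all genes), 4 in FL (74.5%), 1 for TE change (*Map2k2*, 42.7%) and 4 for RPFs (34.7% lower and 35.8% higher in FL). Over all genes the TE calls went from 45 to 4791, against 856 with DESeq2, 6 with the replicate block and 4 with that block within tissue. Leaving out each replicate or library gave 2 to 5 members in the mesoderm, 1 to 3 in NT, 1 to 3 in FL, 0 for TE change, 2 for mRNA and 2 to 4 for RPFs. RPF changes came to 4 without FL_RPF replicate 3, where 3596 of 11231 genes were lower and 3677 higher in FL. For single members, 733 of the values under an alternative kept their direction and side of the threshold, 21 lost the threshold, 16 gained it and 21 changed sign. The sign changes were all in values that passed no threshold. With equal library totals they were *Map2k1* TE change at -0.069, *Map2k5* TE change at -0.12 and *Map2k5* RPFs at -0.13, with edgeR *Map2k5* RPFs at -0.023, and without both libraries numbered 3 *Map2k1* TE change at -0.011. Over fits without 1 library, *Map2k2* TE in FL ran from -0.015 to 0.46, *Map2k1* TE change from -0.014 to 0.30, *Map2k5* TE change from -0.060 to 0.16, *Map2k2* mRNA from -0.12 to 0.10, *Map2k5* mRNA from -0.090 to 0.068, *Map2k4* RPFs from -0.29 to 0.050 and *Map2k5* RPFs from -0.092 to 0.13. The cause was not tested. Depth limits *Map2k3* most, with 173 reads in its lowest library.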
